A study of Mus musculus with 8 samples.

Results

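Notch signalling and the switch to secretory fate were followed through 10 genes in intestinal crypts of mice with and without Mex3a. The genes were taken by symbol from the 55114 genes of the count table: the receptors Notch1 and Notch2, the ligands Dll1, Dll4 and Jag1, the glycosyltransferase Lfng, the DNA-binding partner Rbpj, the target repressor Hes1, and the secretory factors Atoh1 and Gfi1. All 10 passed the filter on low counts that left 16109 genes for testing. The mice were 8-week-old C57BL/6 animals, 4 Ctrl (wild-type littermates) and 4 KO (Mex3a-/-). The KO allele is constitutive, lacking exon 1 and part of exon 2, so every cell of the animal lacks it. RNA came from crypts released with EDTA, without sorting of a cell type and with no intestinal segment named, and the labels name no reporter or treatment in either group.

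In the crypt, a cell that displays Delta-like ligands activates Notch receptors on its neighbours. The cut receptor moves to the nucleus and joins RBPJ, and its targets include the repressor Hes1, which keeps Atoh1 off. Cells with active Notch stay stem cells or become absorptive enterocytes, while cells that escape it express Atoh1 and become goblet, Paneth, enteroendocrine or tuft cells. Dll1 and Dll4 themselves are carried by secretory progenitors and Paneth cells, so ligand and Atoh1 mark the same side of the switch.

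Between 20324184 and 24726221 reads per Ctrl mouse and between 23489180 and 30654105 per KO mouse were counted on genes. Levels are given as CPM, counts scaled to the size of each library with TMM factors, and as the deposited FPKM, which also divides by gene length, where different genes are compared. The test of KO against Ctrl was the quasi-likelihood test of edgeR, read at an unadjusted p under 0.05 and after Benjamini-Hochberg adjustment over all genes tested. Beside it stands a two-sided exact permutation test of log2 CPM over the 70 assignments of 8 mice, whose smallest possible p is 0.0286. Mice numbered 1 and 2 in each genotype carried Y-linked transcripts and mice 3 and 4 carried Xist. Epithelium markers summed to between 6660 and 7319 CPM in Ctrl and between 7532 and 9188 CPM in KO, against 13.4 to 31.4 CPM over all 8 mice for stroma markers, and no marker was at 0 in every mouse.

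Mex3a, which encodes an RNA-binding protein, had 269, 236, 327 and 328 counts in Ctrl mice 1 to 4 and 20, 28, 6 and 8 counts in KO mice 1 to 4. Every KO mouse lay below every Ctrl mouse, as the labels require. It was the 1 gene of 16109 under an adjusted p of 0.05 (0.00621% of genes tested), with an adjusted p of 0.0310 from edgeR's quasi-likelihood test. Of the 84 Notch pathway and secretory fate genes tested 0 passed it. At an unadjusted p under 0.05, 8 of the 84 passed, beside 8.38% of all genes tested. DESeq2 in place of edgeR also put 0 of the 84 under the adjusted threshold (lowest adjusted p = 0.167), and gave no adjusted p for Numbl. Each of the other alternatives, which tested 74 to 89 genes of these lists, put 0 under it too.

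Across the 10 genes, 1 was higher and 0 were lower in KO crypts at an unadjusted p under 0.05, where 5.33% of all genes tested were higher and 3.05% lower (8.38% in either direction). The gene that rose was the ligand Dll1. By log2 fold change 7 of the 10 were above 0, with a median of 0.14, beside a median of -0.016 over all genes tested. The plot of CPM by mouse shows the 4 Dll1 values of KO above the 4 of Ctrl, and overlapping groups for the other 9 genes.

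**Figure D1:**
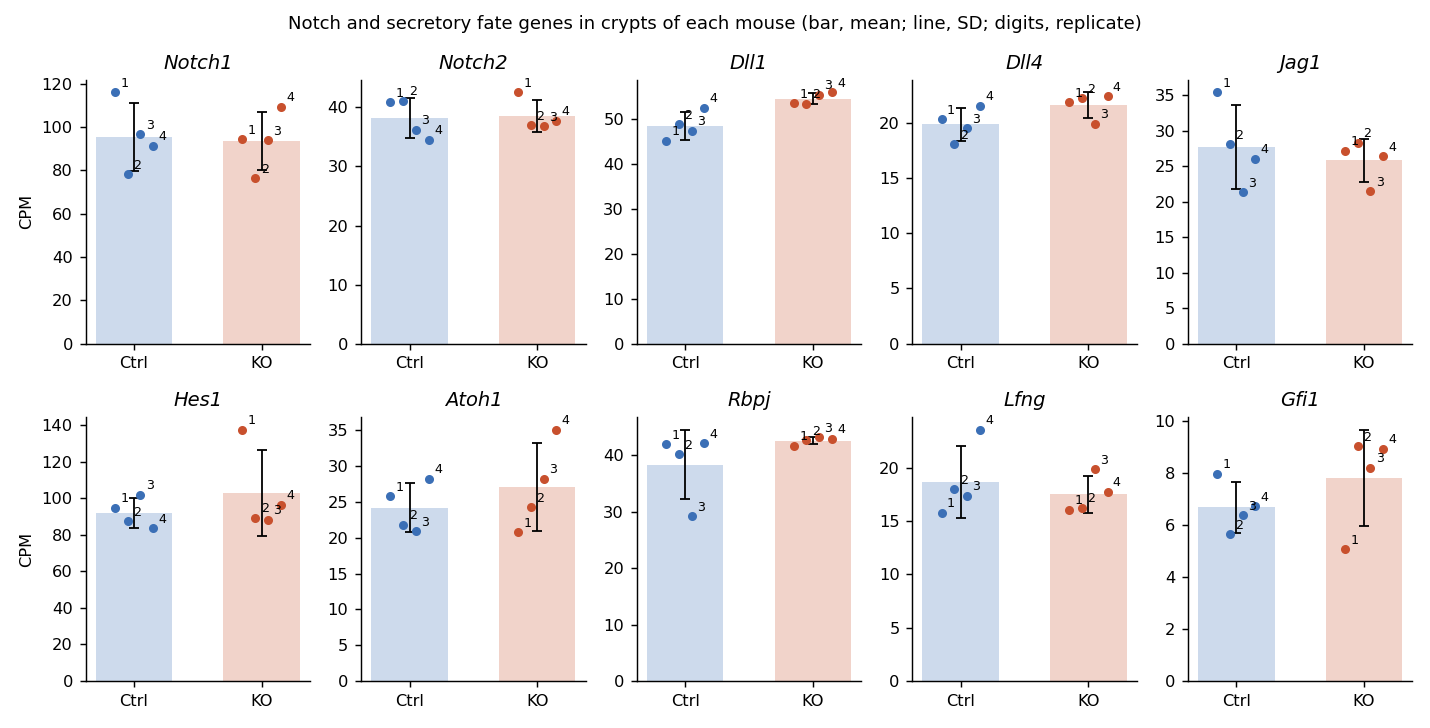
CPM (y axes, from 0) of the 10 Notch and secretory fate genes in 4 Ctrl and 4 KO mice. Points are mice with their replicate number, bars are means and lines are SD (n = 4 per genotype). The groups are apart for Dll1, with 45.2 to 52.6 CPM in Ctrl and 53.5 to 56.1 CPM in KO, and overlap in the other panels.

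Per length, Hes1 was the most abundant of the 10, at 47.6 ± 8.57 FPKM (SD over all 8 mice), and was above the next gene in 8 of 8 mice without overlap of their ranges. Dll1 (12.2 ± 0.96 FPKM) and Atoh1 (12.03 ± 2.28 FPKM) followed and could not be ordered, since Dll1 was above Atoh1 in 4 of 8 mice. All values of Atoh1 lay above those of Lfng (7.19 ± 1.02 FPKM). From Lfng downwards each range overlapped the next: Notch1 had 6.61 ± 0.936 FPKM, Dll4 5.35 ± 0.408, Jag1 4.57 ± 0.741, Notch2 3.54 ± 0.260, Rbpj 3.16 ± 0.362 and Gfi1 2.27 ± 0.469. Although ranges overlapped, Jag1 was above Notch2 and Rbpj above Gfi1 in 8 of 8 mice. The order, and the shares of FPKM given below, rest on the deposited gene lengths, such as 12750 bases for Rbpj and 3852 for Dll4. Whether these lengths match the transcripts present in crypts was not tested.

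The receptors bind ligand at the cell surface and release the intracellular domain that carries the signal. Notch1 (ENSMUSG00000026923; GRCm38 chromosome 2, 26457903 to 26516663, minus strand) had 116, 78.2, 96.8 and 91.3 CPM in Ctrl mice 1 to 4 and 94.4, 76.4, 93.9 and 109 CPM in KO mice 1 to 4. The KO values lay inside the Ctrl range except for mouse 2, the lowest of all 8. Notch1 had a log2 fold change of -0.031 (95% interval -0.34 to 0.28, edgeR adjusted p = 0.977, exact permutation p = 0.800), and its sign turned without Ctrl replicate 1 (0.075) or KO replicate 2 (0.058).

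Notch2 (ENSMUSG00000027878; chromosome 3, 98013527 to 98150361, plus strand) had 40.9, 41.2, 36.2 and 34.5 CPM in Ctrl and 42.6, 37.0, 36.8 and 37.8 CPM in KO. KO mouse 1 was the highest of the 8, and the other 3 KO mice lay within 1 CPM of each other. With a log2 fold change of 0.012 (95% interval -0.18 to 0.21, edgeR adjusted p = 0.985, exact permutation p = 0.914), the fitted interval for Notch2 in KO runs from 0.880 to 1.16 times its level in Ctrl.

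Notch3 and Notch4, which are best known from vessel walls and endothelium, were scarcer. Notch3 had 0.794 to 1.95 CPM in Ctrl and 0.779 to 1.66 CPM in KO (log2 fold change -0.38, edgeR adjusted p = 0.811, exact permutation p = 0.371). Notch4 had 8.41 to 11.4 CPM in Ctrl and 9.53 to 14.8 CPM in KO, a log2 fold change of 0.28 (edgeR adjusted p = 0.671, exact permutation p = 0.200), with the 4 Ctrl and 4 KO mice overlapping. Without KO replicate 1, the difference of Notch4 was 0.37 and passed the unadjusted threshold (edgeR adjusted p = 0.356, the lowest over its alternatives, which reached 0.973). Of 8 endothelium markers 4 were tested. At an unadjusted p under 0.05 in edgeR, Esam was lower and 0 were higher, beside 3.05% and 5.33% of all genes tested. The sum of the list was 9.06 to 18.3 CPM in Ctrl and 7.88 to 10.96 CPM in KO. The part of endothelial RNA in the Notch4 values was not tested.

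Of the summed FPKM of the 4 receptors, Notch1 made up 57.3% ± 3.57 in Ctrl and 55.7% ± 2.60 in KO (SD, n = 4 mice each), and Notch2 made up 30.6% ± 3.96 and 30.6% ± 3.29. Notch4 contributed 10.6% ± 1.42 and 12.7% ± 1.84, and Notch3 1.49% ± 0.528 and 1.11% ± 0.336. The 4 receptor shares gave two-sided exact permutation p between 0.114 and 1.0. The make-up of the receptor pool thus differed by at most 2.07 percentage points between the genotype means.

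Delta-like and Jagged proteins are the membrane-bound ligands of these receptors. Dll1 (ENSMUSG00000014773; chromosome 17, 15367354 to 15376872, minus strand), which encodes the ligand carried by early secretory progenitors, had 45.2, 49.0, 47.5 and 52.6 CPM in Ctrl mice 1 to 4 and 53.6, 53.5, 55.5 and 56.1 CPM in KO mice 1 to 4. All 4 KO mice lay above all 4 Ctrl mice, a pattern shown by 2.17% of all genes tested, and the gap between the nearest mice of the 2 genotypes was under 1 CPM. Dll1 was 12.5% higher in KO, with a log2 fold change of 0.17 (standard error 0.066, 95% interval 0.022 to 0.32, edgeR unadjusted p = 0.0288, adjusted p = 0.557, exact permutation p = 0.0286).

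The difference of Dll1 was of like size within the Xist-carrying mice (0.16 on the log2 scale) and within the mice with Y transcripts (0.19). It stayed under an unadjusted p of 0.05 in 12 of 17 alternative settings, and lost it with no filter on low counts (log2 fold change 0.18) and without Ctrl replicate 1 (0.14), Ctrl replicate 3 (0.16), KO replicate 3 (0.16) or KO replicate 4 (0.16). The adjusted p of Dll1 over the alternatives lay between 0.338 and 0.952. An RNA from the opposite strand, A930024N18Rik, overlaps Dll1 and had 286 counts over the 8 mice against 9883 for Dll1. The strand setting of the counting is not given in the sources used here.

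Dll4 (ENSMUSG00000027314; chromosome 2, 119325784 to 119335962, plus strand), the partner of Dll1 in the crypt, had 20.3, 18.0, 19.5 and 21.6 CPM in Ctrl and 21.9, 22.2, 19.9 and 22.4 CPM in KO. Each KO mouse was above the Ctrl mouse of the same number, but the groups overlapped through KO mouse 3. Dll4 had a log2 fold change of 0.12 (95% interval -0.091 to 0.33, edgeR adjusted p = 0.771, exact permutation p = 0.114), which was above 0 in 17 of 17 alternatives. The opposite-strand gene Gm14207 overlaps it, with 710 counts over the 8 mice against 3969 for Dll4.

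Jag1 (ENSMUSG00000027276; chromosome 2, 137081456 to 137116644, minus strand), which encodes a Jagged-type ligand, had 35.4, 28.1, 21.3 and 26.1 CPM in Ctrl and 27.2, 28.3, 21.5 and 26.4 CPM in KO. Ctrl mouse 1 was the highest, and in the other 3 numbers the KO mouse lay within 1 CPM of its Ctrl counterpart. For Jag1 the log2 fold change was -0.10 (95% interval -0.45 to 0.25, edgeR adjusted p = 0.911, exact permutation p = 0.743), and 0.039 without Ctrl replicate 1. The second Jagged ligand, Jag2, had 13.4 to 19.5 CPM in Ctrl and 9.70 to 19.2 CPM in KO (log2 fold change -0.28, edgeR adjusted p = 0.763, exact permutation p = 0.257), and without KO replicate 3 the log2 fold change was -0.48 and passed the unadjusted threshold (edgeR adjusted p = 0.952, with 0.511 to 0.952 over its alternatives). Dll3, a divergent ligand that does not activate receptors on neighbouring cells, had 0.981 to 3.23 CPM in Ctrl and 0.737 to 2.03 CPM in KO (log2 fold change -0.55, edgeR adjusted p = 0.776, exact permutation p = 0.343).

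Of the summed FPKM of Dll1, Dll4, Jag1 and Jag2, Dll1 made up 43.1%, 50.4%, 50.1% and 50.3% in Ctrl mice 1 to 4 and 51.2%, 51.3%, 53.1% and 52.0% in KO mice 1 to 4. The share of Dll1 was larger in every KO mouse than in every Ctrl mouse, by 3.44 percentage points between the means. Its two-sided exact permutation p was 0.0286, the smallest that 4 mice against 4 allow, and 0.229 after adjustment over the 8 shares computed. Without Ctrl mouse 1, an alternative chosen after seeing the data, the difference was 1.65 percentage points (exact permutation p = 0.0571). Leaving out each of the other 7 mice gave 3.04 to 4.08 percentage points (exact permutation p = 0.0286 to 0.114). Dll4 went from 21.7% ± 1.09 to 22.5% ± 1.09, Jag1 from 19.9% ± 3.56 to 17.8% ± 2.09 and Jag2 from 9.95% ± 1.45 to 7.84% ± 2.33 (SD, n = 4 mice each), with two-sided exact permutation p of 0.257, 0.371 and 0.171.

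**Figure D2:**
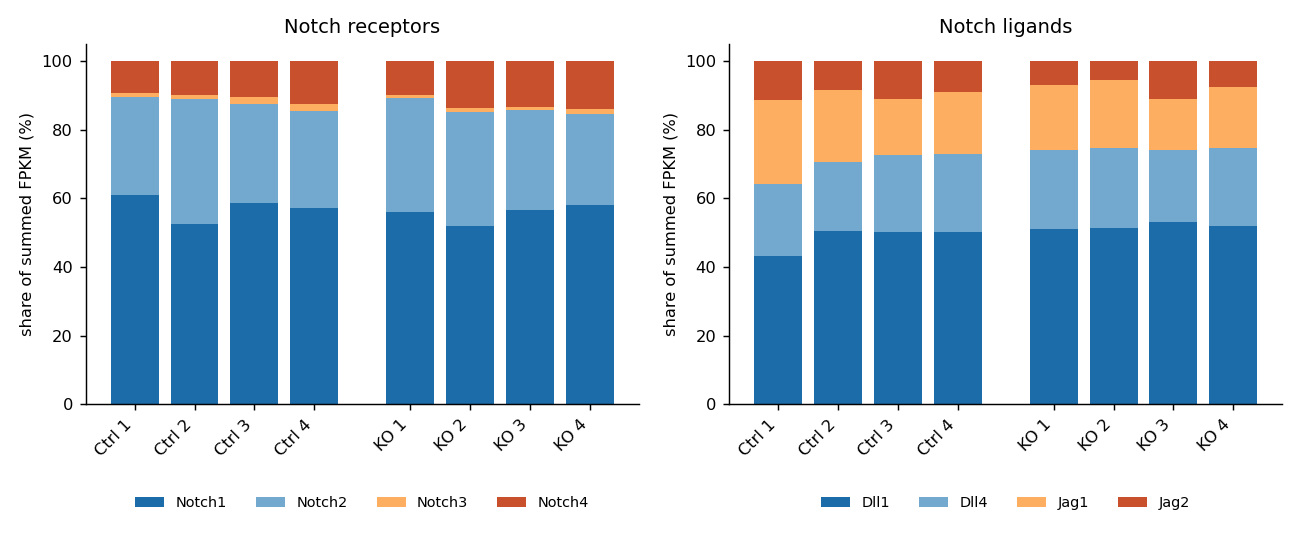
Share of the summed FPKM (y axis, %) taken by each of 4 Notch receptors (left) and 4 Notch ligands (right) in each mouse, 4 Ctrl and 4 KO. Notch1 is the largest part of the receptor bars in all 8 mice, and Dll1 the largest part of the ligand bars, at 43.1% in Ctrl mouse 1 and 50.1% to 53.1% in the other mice.

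Before it can signal, the receptor is glycosylated, cut and, once used, degraded. Lfng (ENSMUSG00000029570; chromosome 5, 140607320 to 140615545, plus strand) encodes the fringe enzyme that extends O-fucose on Notch and favours Delta-like over Jagged ligands. It had 15.8, 18.0, 17.4 and 23.6 CPM in Ctrl and 16.1, 16.3, 19.9 and 17.8 CPM in KO, with Ctrl mouse 4 the highest of the 8. Its log2 fold change was -0.095 (95% interval -0.42 to 0.22, edgeR adjusted p = 0.905, exact permutation p = 0.686), and 0.037 without Ctrl replicate 4.

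Rbpj (ENSMUSG00000039191; chromosome 5, 53466152 to 53657362, plus strand), which encodes the factor that brings the cut receptor to DNA, had 42.0, 40.2, 29.2 and 42.2 CPM in Ctrl and 41.7, 42.7, 43.2 and 43.0 CPM in KO. The KO mice spanned less than 2 CPM, and Ctrl mouse 3 stood below the other 7. With all mice the log2 fold change of Rbpj was 0.15 (95% interval -0.11 to 0.41, edgeR adjusted p = 0.763, exact permutation p = 0.0857), and it was 0.046 without Ctrl replicate 3.

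The promoters of the genes were searched for the core that RBPJ binds, TGGGAA, on both strands, in RefSeq windows of GRCm38.p6 that run from 250 bases before to 50 after a start. The core is held by 25.6% of all 32851 promoters, and the longer form GTGGGAA, which contains it, by 6.38%. Of the 9 genes with a promoter in the table, which lacks Hes1, matches of the core fell in Lfng and Rbpj. Among the other receptors, ligands and called pathway genes that were searched, the core is held by Poglut1 and Aph1a, and the longer form by Aph1a. Of the 9 only Lfng has the longer form, 109 to 103 bases before its start. That stretch is shown as the clearest match of the 9, with the motif in capitals (chr5:140607220-140607249, plus strand).
Lfng: tccgtatcccacGTGGGAAggagagatctc

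Dll1 was searched likewise for the E-box CAGCTG that ATOH1-type factors bind (16.3% of promoters). Of the 9 genes it is held by Dll1, Jag1 (1 match) and Lfng (2 matches), and among the other receptors, ligands and called pathway genes by Nrarp and Dll3, with Dtx4 and Mib1 not searched because the table lacks them too. The fitted log2 fold changes of Jag1, Lfng and Dll3 were below 0 and did not pass the test, so genes with the E-box lay on both sides of 0. In Dll1 the match is in the second of 2 promoters, 132 to 127 bases before the start, and in Nrarp it follows the start. These 2 windows are shown because these are the holders past the unadjusted threshold (chr17:15377047-15377076, minus strand, and chr2:25180778-25180807, plus strand, motif in capitals).
Dll1: tgcattaccataCAGCTGagcgcacaaaga
Nrarp: gcgggtggagttCAGCTGgagcgaagccta
A match is a description of the letters and not a binding site. The N-box CACNAG, read by HES-type repressors, is held by 42.5% of promoters, and among the 9 genes by Notch1, Notch2, Dll1, Dll4, Atoh1 and Lfng.

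The HES family of repressors carries the Notch signal on to its targets. Hes1 (ENSMUSG00000022528; chromosome 16, 30064384 to 30067796, plus strand), which represses Atoh1, had 94.8, 87.6, 102 and 83.6 CPM in Ctrl mice 1 to 4 and 138, 89.4, 88.3 and 96.5 CPM in KO mice 1 to 4. KO mouse 1 stood far above the other 7, and the other 3 KO mice lay inside the Ctrl range. Hes1 had a log2 fold change of 0.16 (standard error 0.14, 95% interval -0.16 to 0.49, edgeR adjusted p = 0.799, exact permutation p = 0.514), and of -0.0093 (adjusted p = 0.979, with 0.718 to 0.979 over the alternatives) without KO replicate 1. Within the Xist-carrying mice the difference of Hes1 was -0.00074 on the log2 scale, and within the mice with Y transcripts, which include KO mouse 1, it was 0.28.

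Nrarp (ENSMUSG00000078202; chromosome 2, 25180758 to 25183339, plus strand), a Notch target that feeds back on the pathway by limiting the cut receptor, had 14.0, 19.0, 19.97 and 18.8 CPM in Ctrl mice 1 to 4 and 24.5, 21.1, 24.6 and 24.7 CPM in KO mice 1 to 4. All 4 KO mice lay above all 4 Ctrl mice. It was 32.1% higher in KO, with a log2 fold change of 0.40 (standard error 0.13, 95% interval 0.12 to 0.69, edgeR unadjusted p = 0.0110, adjusted p = 0.518, exact permutation p = 0.0286). Nrarp kept an unadjusted p under 0.05 in 17 of 17 alternatives (highest 0.0291), with log2 fold changes from 0.30 to 0.46 and adjusted p from 0.167 to 0.952. The difference was 0.35 within the Xist-carrying mice and 0.48 within the mice with Y transcripts. In KO mice 2, 3 and 4, Hes1 lay inside its Ctrl range while Nrarp lay above its own. The 95% intervals of the 2 Notch targets overlapped, and the difference between them was not tested.

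Atoh1 (ENSMUSG00000073043; chromosome 6, 64729125 to 64731245, plus strand) encodes the factor that commits a cell to the secretory lineages. It had 25.8, 21.8, 20.9 and 28.3 CPM in Ctrl mice 1 to 4 and 20.7, 24.3, 28.3 and 35.1 CPM in KO mice 1 to 4. KO mice held both the lowest and the highest value of the 8. The fitted log2 fold change was 0.16 (standard error 0.17, 95% interval -0.22 to 0.54, edgeR adjusted p = 0.839, exact permutation p = 0.571), and ranged from 0.012 without KO replicate 4 to 0.27 without KO replicate 1. It was 0.37 within the Xist-carrying mice and -0.081 within the mice with Y transcripts.

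Gfi1 (ENSMUSG00000029275; chromosome 5, 107716657 to 107726036, minus strand), a repressor downstream of Atoh1 that separates goblet and Paneth from enteroendocrine fate, had 7.99, 5.65, 6.40 and 6.73 CPM in Ctrl and 5.08, 9.04, 8.22 and 8.94 CPM in KO. KO mouse 1 was the lowest of the 8, while the other 3 KO mice were the highest. Gfi1 had a log2 fold change of 0.23 (95% interval -0.24 to 0.69, edgeR adjusted p = 0.807, exact permutation p = 0.371). Without KO replicate 1 it was 0.38 (edgeR adjusted p = 0.356, with 0.356 to 0.9751 over the alternatives), the 1 of 17 alternatives past the unadjusted threshold. In these bulk crypts, fewer cells of a kind and less RNA in each cell cannot be told apart.

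KO mouse 1 thus had the highest Hes1 together with the lowest Atoh1 and the lowest Gfi1 of all mice. The ratio of Hes1 to Atoh1 in FPKM was 3.82, 4.18, 5.07 and 3.08 in Ctrl mice 1 to 4 and 6.91, 3.83, 3.25 and 2.86 in KO mice 1 to 4, so both ends of the range were KO mice. Over the 8 mice, log2 CPM of Hes1 and Atoh1 had a Pearson r of -0.448 (exact permutation p = 0.269) and a Spearman rho of -0.476 (exact permutation p = 0.243). With genotype means subtracted r was -0.608 (exact permutation p = 0.106). Without Ctrl mouse 3 and KO mouse 1, the 2 farthest from the median of Hes1, r was 0.423, so the negative sign rests on those mice.

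Atoh1 and Gfi1 had a Pearson r of 0.724 (exact permutation p = 0.0433, adjusted over the 5 pairs examined 0.217) and a Spearman rho of 0.667 (exact permutation p = 0.0831). The r was 0.693 with genotype means subtracted (exact permutation p = 0.0502) and 0.521 without KO mice 1 and 4, the farthest from the median of Atoh1. With both changes it was 0.337, so the relation was weaker without those 2 mice. Atoh1 had an r of 0.498 with Dll1 (exact permutation p = 0.210, rho 0.381 with exact permutation p = 0.360) and 0.452 with Dll4 (exact permutation p = 0.264, rho 0.381 with exact permutation p = 0.360). Without KO mice 1 and 4 these were 0.528 and 0.537. Notch1 and Hes1 had an r of 0.235 (exact permutation p = 0.569, rho 0.595 with exact permutation p = 0.132), and 0.261 without Ctrl mouse 1 and KO mouse 2. Adjusted over the 5 pairs, these 3 and the pair of Hes1 and Atoh1 had p of 0.336 to 0.569 by exact permutation.

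Among 9926 genes with a mean log2 CPM of at least 3, those closest to Atoh1 over the 8 mice were Tecpr1 (Pearson r = 0.980), Spdef (0.973) and Hoxb9 (0.970). Spdef encodes the factor that drives goblet and Paneth cell maturation. The log2 fold change of Spdef was 0.046 (edgeR adjusted p = 0.960). The genes closest to Hes1 were Ess2 (Pearson r = 0.929), Nln (0.917) and Zfp870 (0.908), with Spearman rho of 0.524, 0.881 and 0.786. These likenesses are descriptions over 8 libraries.

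**Figure D3:**
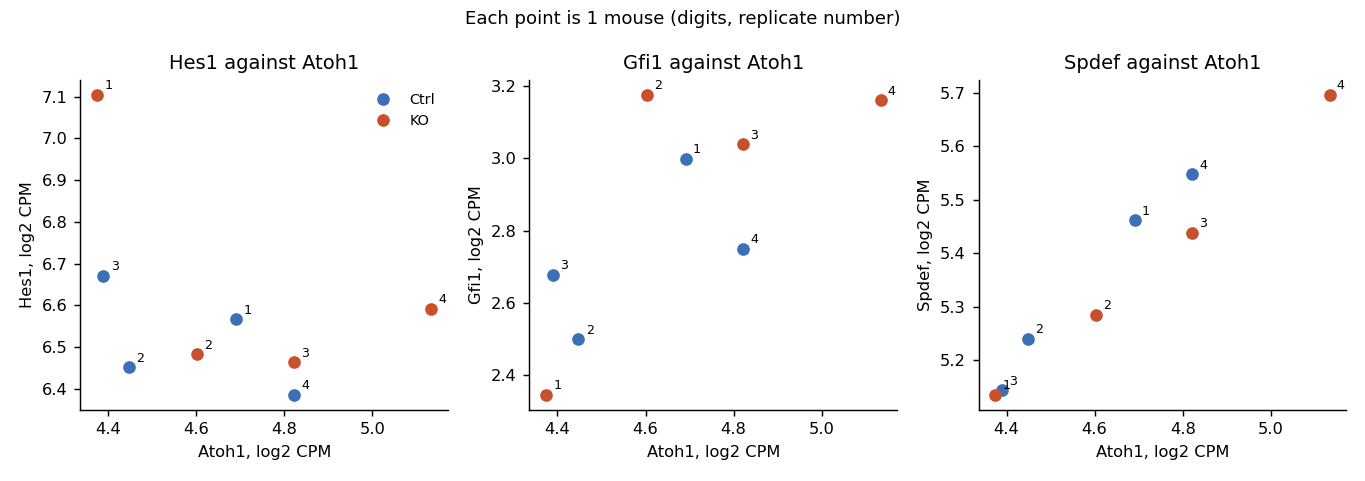
Log2 CPM of Hes1, Gfi1 and Spdef (y axes) against log2 CPM of Atoh1 (x axes) in 8 mice, with the replicate number beside each point. Spdef, picked for its high r with Atoh1 among 9926 genes, follows it through all mice (r = 0.973). Gfi1, paired with Atoh1 for its known role, has an r of 0.724. The negative r of Hes1 (-0.448) turns to 0.423 without Ctrl mouse 3 and KO mouse 1.

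Of 17 secretory fate transcription factors, 16 were tested and 0 passed the unadjusted threshold of edgeR in either direction, beside 8.38% of all genes tested. The median log2 fold change of these factors was -0.042. Gfi1b was too low to test. When the replicate number was fitted as a block, 3 of them passed it. Klf4, a goblet cell factor, was higher (log2 fold change 0.44, edgeR adjusted p = 0.305), while Sox4 (-0.24, adjusted p = 0.301) and Sox9 (-0.26, adjusted p = 0.334), factors of progenitors and Paneth cells, were lower. In that fit 7.14% of all genes were higher and 4.13% lower. DESeq2 also gave 1 higher (6.10% of all genes), and upper-quartile scaling 2 lower (3.7%). Without KO replicate 1, 2 were higher (7.94% of all genes) and 1 was lower (5.04%).

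The pathway beyond these genes was followed with 7 lists holding 72 Notch genes, of which 68 were tested. Hes3, Hes5, Hey1 and Hey2 were too low. At an unadjusted p under 0.05, 5 were higher (7.35%) and 3 lower (4.41%), beside 5.33% and 3.05% of all genes. All KO mice lay above all Ctrl mice in 3 (Dll1, Nrarp and Neurl1b) and below in 1 (Dtx4), where 2.17% and 1.87% of all genes did so. The median log2 fold change of the 68 was 0.017. The number higher moved with single mice, as did the share of all genes higher: it was 9 without KO replicate 1 (7.94% of all genes), 2 without Ctrl replicate 3 (3.90%) or KO replicate 3 (2.99%), and 1 without KO replicate 4 (3.69%).

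Among the enzymes that act on Notch ligands and receptors, the calls went both ways. Dtx4, a Deltex-type E3 ubiquitin ligase that acts on Notch, had 84.5, 75.7, 77.7 and 73.9 CPM in Ctrl mice 1 to 4 and 63.7, 56.1, 57.4 and 73.5 CPM in KO mice 1 to 4. All KO mice lay below all Ctrl mice, KO mouse 4 only just. Dtx4 was 19.6% lower in KO (log2 fold change -0.31, 95% interval -0.53 to -0.10, edgeR unadjusted p = 0.00870, adjusted p = 0.518, exact permutation p = 0.0286), and kept an unadjusted p under 0.05 in 17 of 17 alternatives (highest 0.0279), with adjusted p from 0.209 to 0.952.

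Mib1, the E3 ligase that sends ligands into endocytosis so that they can pull on the receptor, had 124, 113, 95.8 and 103 CPM in Ctrl and 93.0, 97.8, 91.9 and 90.2 CPM in KO (log2 fold change -0.22, edgeR unadjusted p = 0.0270, adjusted p = 0.548, exact permutation p = 0.0571). Every KO mouse was below its same-numbered Ctrl mouse, and KO mouse 2 overlapped the Ctrl range. Neurl1b, a second ligand-directed E3 ligase, had 15.8, 18.0, 20.02 and 19.1 CPM in Ctrl and 20.2, 22.2, 23.8 and 20.8 CPM in KO (log2 fold change 0.25, edgeR unadjusted p = 0.0412, adjusted p = 0.578, exact permutation p = 0.0286). Mib1 stayed past the unadjusted threshold in 13 of 17 alternatives, losing it without Ctrl replicate 1 or 2 and without KO replicate 3 or 4. Neurl1b stayed past it in 9, losing it with upper-quartile factors, with no filter and in 6 of the 8 fits that left out 1 mouse.

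Poglut1, which adds O-glucose to the EGF repeats of Notch, had 27.7 to 30.2 CPM in Ctrl and 28.6, 21.6, 23.7 and 21.1 CPM in KO (log2 fold change -0.31, edgeR unadjusted p = 0.0196, adjusted p = 0.533, exact permutation p = 0.0571). Aph1a, a subunit of the γ-secretase that cuts the receptor, had 101, 110, 99.3 and 97.1 CPM in Ctrl and 106, 117, 125 and 115 CPM in KO (log2 fold change 0.18, edgeR unadjusted p = 0.0325, adjusted p = 0.557, exact permutation p = 0.0571). Numbl, a relative of the Notch inhibitor Numb, was near the limit of detection with 10 to 20 counts in Ctrl and 21 to 48 in KO (log2 fold change 0.87, edgeR unadjusted p = 0.0197, adjusted p = 0.533, exact permutation p = 0.0571). Poglut1 stayed past the unadjusted threshold in 15 of 17 alternatives (not without KO replicate 2 or 4), Aph1a in 11 (lost in 6 of the 8 fits that left out 1 mouse) and Numbl in 12 of the 15 that tested it (not without Ctrl replicate 3 or 4 or KO replicate 4). In Poglut1 and Mib1 all 4 KO mice lay below, and in Aph1a and Numbl all 4 lay above, the Ctrl mouse of the same number, but the groups overlapped.

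By list, 0 of 4 receptors, 1 of 5 ligands (Dll1), 1 of 5 glycosyltransferases (Poglut1), 1 of 10 cleavage genes (Aph1a), 4 of 15 endocytosis and turnover genes, 0 of 23 nuclear co-factors and 1 of 6 tested target repressors (Nrarp) passed the unadjusted threshold. Of all genes tested 8.38% passed it in either direction, and with lists this short no list was tested as a set. The nuclear co-factors, among them Maml1, Crebbp and the Tle co-repressors, had a median log2 fold change of -0.056, with 8 of 23 above 0. The 6 tested target repressors had a median log2 fold change of 0.34, with 5 of 6 above 0. Over all genes tested the median was -0.016, and 7425 of 16109 were above 0. Besides Nrarp and Hes1, the repressors were Hes2 (log2 fold change 0.95), Hes7 (0.35), Heyl (0.33) and Hes6 (-0.065), none of which passed the threshold. Hes7 had 7 to 29 counts per mouse and Heyl 7 to 36, near the limit of detection, and the median lay between their values. Hes2 had 31 to 209 counts per mouse. The unadjusted p from edgeR was 0.413 for Hes7, 0.485 for Heyl and 0.0941 for Hes2. Fitting the replicate number as a block brought the pathway count to 10 higher (14.7% of 68, beside 7.14% of all genes) and left it at 3 lower. The added genes were the E3 ligases Neurl3 (log2 fold change 0.23), Itch (0.17), Dtx1 (1.02) and Dtx3l (0.29) and the repressor Hes2 (0.91), with adjusted p of 0.382 to 0.442 in that edgeR fit.

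**Figure D4:**
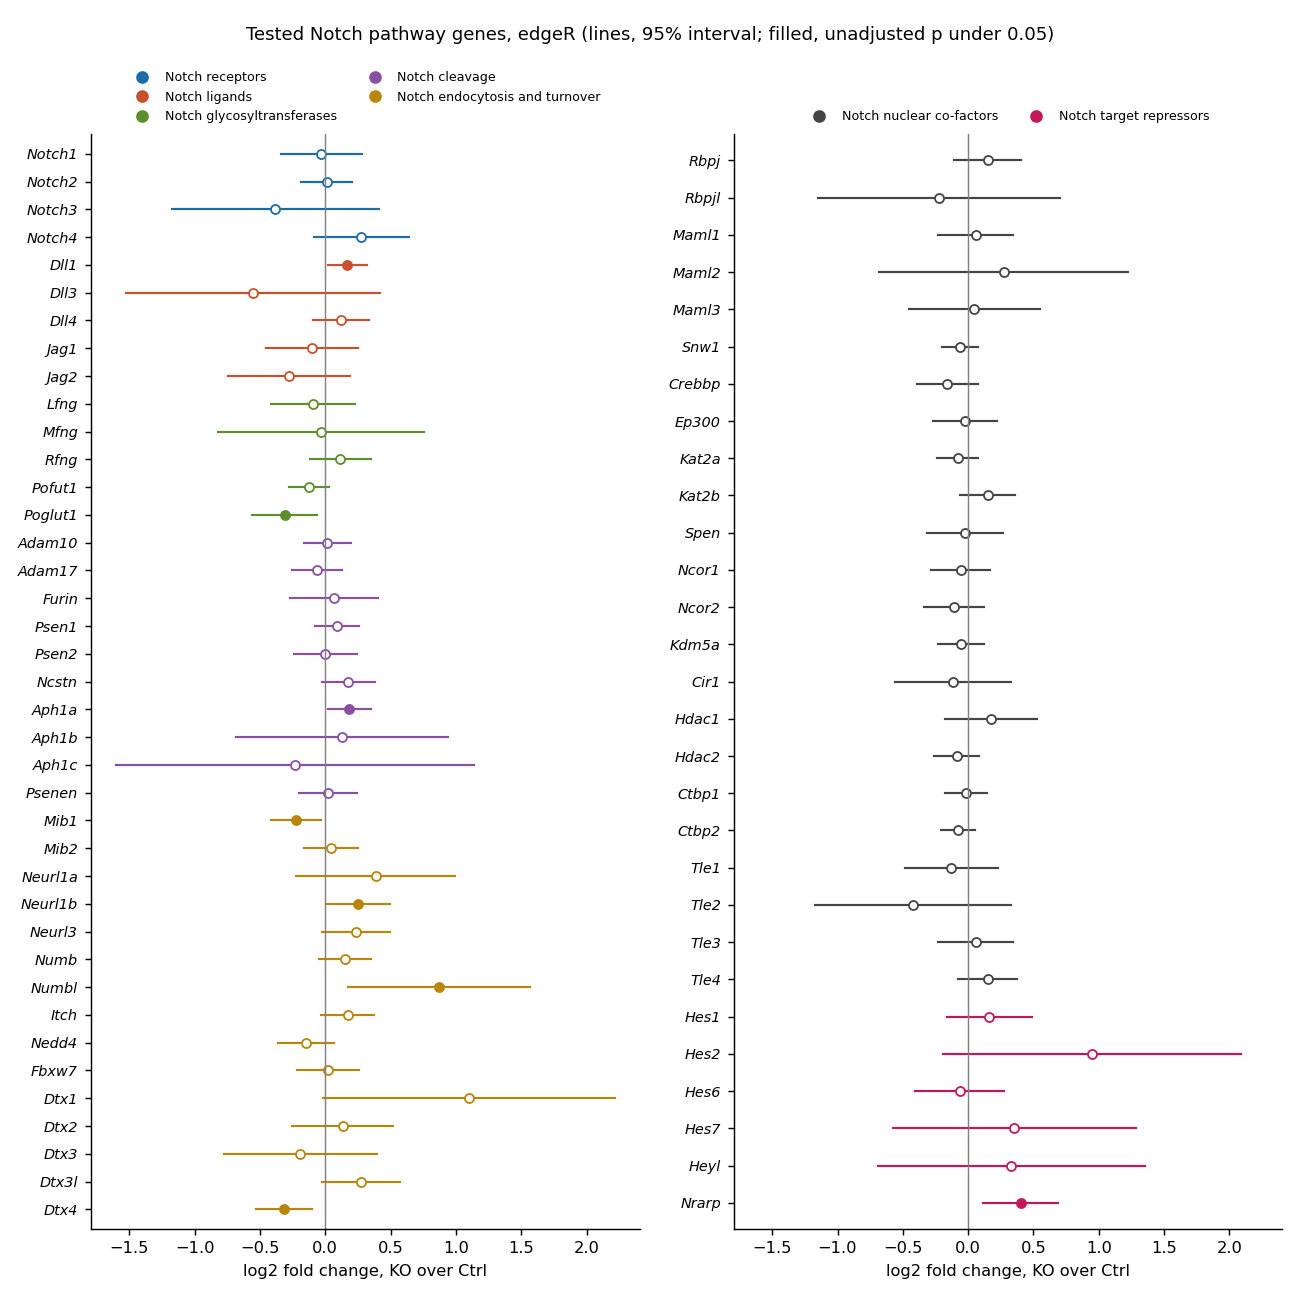
Log2 fold change of KO over Ctrl (x axes) with 95% intervals from edgeR for the 68 tested Notch pathway genes, coloured by list. Filled points have an unadjusted p under 0.05: 5 are higher (Dll1, Aph1a, Neurl1b, Numbl and Nrarp) and 3 lower (Poglut1, Mib1 and Dtx4), and the 23 nuclear co-factors are open.

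The markers of the cell types on either side of the switch moved as follows in the same mice, and their part in the values of Dll1, Nrarp, Dtx4 and the other genes was not tested. In this and the next paragraph, a marker that rose or fell had an unadjusted p under 0.05 in edgeR. Of all genes tested, 5.33% were higher and 3.05% lower at that threshold, and no marker passed an adjusted p of 0.05. Of 9 goblet markers Fcgbp and Zg16 rose and Spink4 fell, with sums of 5084 to 6888 CPM in Ctrl and 6059 to 8693 CPM in KO. Of 7 Paneth markers 0 passed, all 7 had log2 fold changes below 0 (median -0.70), and sums were 14890 to 47830 CPM in Ctrl and 7447 to 24170 CPM in KO. The median Paneth difference was -1.29 on the log2 scale within the mice with Y transcripts (7 of 7 below 0) and -0.0019 within the Xist-carrying mice (4 of 7). Of 9 enteroendocrine markers Sct rose, while 6 of the 9 had log2 fold changes below 0 (median -0.12), with sums of 266 to 484 CPM in Ctrl and 330 to 360 CPM in KO. Under the block Spink4 and Sct no longer passed, while Tff3 and Clca1 (higher) and Defa24, Pla2g2a and Gip (lower) did. Pla2g2a differed widely among mice of the same genotype. It had 3927, 49.5, 1318 and 1767 CPM in Ctrl mice 1 to 4 and 1090, 57.1, 63.35 and 74.6 CPM in KO mice 1 to 4.

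On the absorptive side, Vil1, Apoa1 and Anpep of 8 enterocyte markers rose, with sums of 1947 to 4724 CPM in Ctrl and 3012 to 10630 CPM in KO. The median enterocyte difference was 1.204 on the log2 scale within the Xist-carrying mice (0 of 8 below 0) and 0.30 within the mice with Y transcripts (3 of 8). Of 6 stem cell markers Lgr5, Olfm4 and Smoc2 fell (edgeR adjusted p = 0.5925, 0.533 and 0.518), and the Lgr5 values of the genotypes overlapped. The stem cell list had sums of 4131 to 4928 CPM in Ctrl and 3052 to 3816 CPM in KO, without overlap. Of 8 immune markers Cd3e and Cd8a rose, with sums of 31.7 to 38.4 CPM in Ctrl and 42.8 to 64.0 CPM in KO, also without overlap. Among single genes, all KO mice lay below all Ctrl mice in 1.87% of those tested and above in 2.17%. Of 6 epithelium markers Krt8, Krt20 and Vil1 rose. Stroma (6 of 8 tested) and smooth muscle (1 of 5 tested) gave 0 calls in edgeR's test.

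MEX3A binds RNA through its KH domains, and the recognition element searched for was A, G or U, then G or U, then AG, then up to 8 bases of any kind, then U, then U, A or C, then UA. For each gene the longest coding transcript was taken (GENCODE M21, GRCm38), and 74.2% of the 13004 tested genes with a 3'UTR contained the element, the median gene having 2 matches. All 10 genes contained it, so holding one does not set them apart. By density, Hes1 had 3 matches in a 3'UTR of 368 bases, or 8.15 per kb, a density reached by 1.33% of those genes. Jag1 had 8 matches in 1568 bases (5.10 per kb, reached by 6.97%), and Atoh1 had 1 in 867 bases (1.15 per kb, reached by 65%).

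The matches of Hes1 are shown for their density, those of Dll1 and Nrarp because these genes were higher in KO, and that of Atoh1 as the gene Hes1 represses. T stands for U, capitals mark the fixed parts of the element and lower case the gap. In Hes1 they lie in exon 4 (chr16:30067507-30067522, chr16:30067764-30067775 and chr16:30067781-30067796, plus strand).
Hes1 match 1: TTAGgagagactTTTA
Hes1 match 2: TGAGaaaaTATA
Hes1 match 3: AGAGtgaaggctTTTA
In Atoh1 the match is in exon 1 (chr6:64731076-64731091, plus strand).
Atoh1: TTAGaaaagttaTTTA
In Dll1 they are in exon 11 (chr17:15367782-15367789 and chr17:15367419-15367429, minus strand).
Dll1 match 1: AGAGTATA
Dll1 match 2: TGAGtttTTTA
In Nrarp both are in exon 1 and have no gap (chr2:25182109-25182116 and chr2:25182235-25182242, plus strand).
Nrarp match 1: TGAGTCTA
Nrarp match 2: TGAGTTTA

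Set against the levels, the gene with the densest matches, Hes1, had a log2 fold change of 0.16 that rested on KO mouse 1, and Jag1, the next of the 10, had one of -0.10. Dll3, outside the 10, lay between them with 5.43 matches per kb and a log2 fold change of -0.55. Nrarp, with 1.06 matches per kb, and Dtx4, with 0.637, were the pathway genes whose calls held in every alternative tried. The densest of the 8 called genes was Mib1, which was lower in KO, with 26 matches (4.03 per kb, reached by 13.8%), followed by Dll1 with 2.96 per kb, Aph1a with 2.09, Neurl1b with 1.98, Numbl with 1.37 and Poglut1 with 1.34. Binding was not measured in these libraries. The plot of log2 fold changes by setting shows Nrarp and Dtx4 apart from 0 throughout, Dll1 above 0 with some open points, and Hes1 reaching 0 without KO replicate 1.

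**Figure D5:**
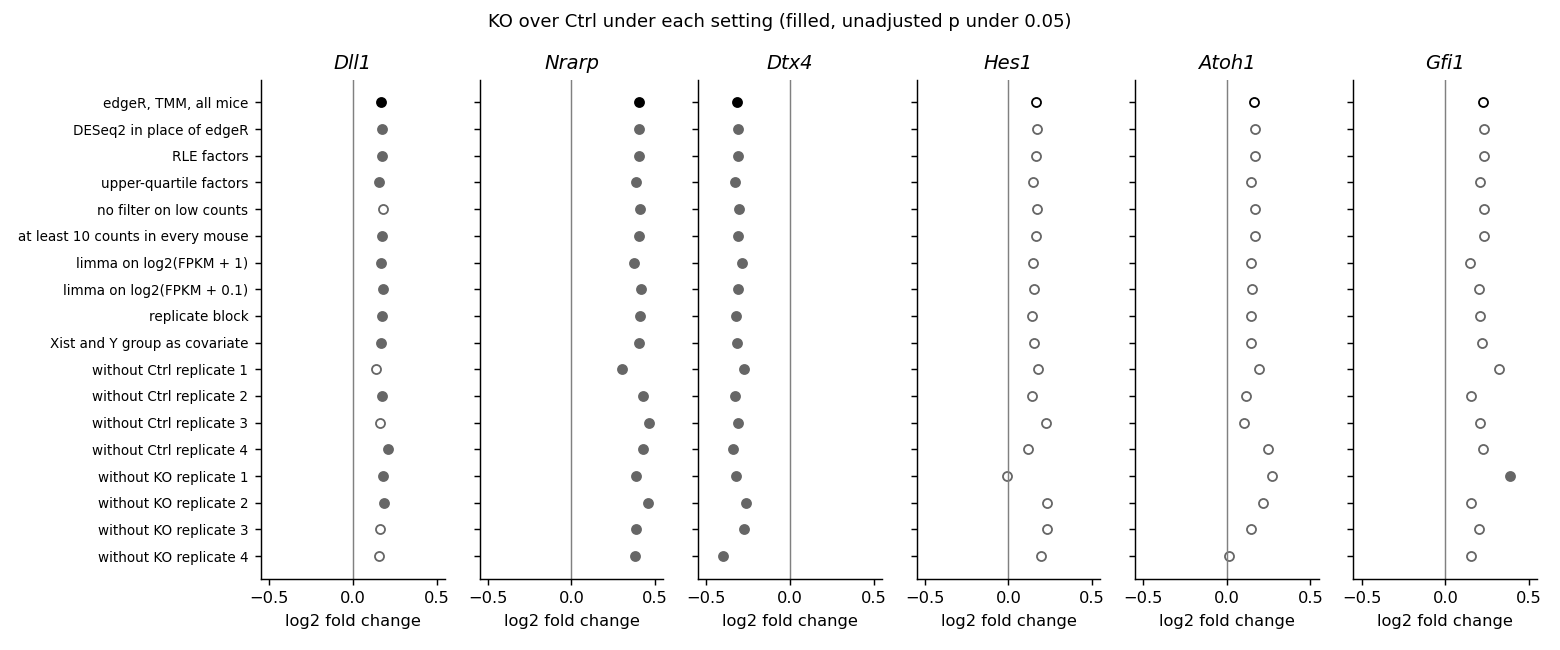
Log2 fold change of KO over Ctrl (x axes) of 6 genes under the test used here (top row) and 17 alternatives (other rows). Filled points have an unadjusted p under 0.05. Nrarp (0.30 to 0.46) and Dtx4 (-0.40 to -0.26) are filled in every row, Dll1 in 12 of 17 alternatives, Gfi1 in 1, and Hes1 and Atoh1 in 0.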

How the data were processed

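RNA of intestinal crypts from 4 Ctrl and 4 KO mice was sequenced, 1 library per mouse, and samples were grouped by their titles. The authors deposited raw counts of reads per gene, made with HISAT2 2.0.5 and featureCounts 1.5.0-p3 according to the submitters' processing notes, which also name CASAVA. The genome build is not given there, and the gene coordinates are those of GRCm38. The authors also deposited FPKM, the counts divided by gene length and by 1 factor per mouse. Their table further holds their own DESeq2 fold changes and p-values, which were not used.

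Counts were tested with edgeR 4.0.16 in R 4.3.3 (filterByExpr, minimum count 10, TMM, quasi-likelihood test, genotype as the only term, all 8 mice). The prior degrees of freedom were 3.34, the residual 6 and the common biological coefficient of variation 0.237. Single values were compared by the two-sided exact permutation test over 70 assignments, written in Python 3.11.15. SciPy 1.17.1 gave the ranks and the adjustment over shares and pairs. The alternatives were DESeq2 1.42.0, RLE factors, upper-quartile factors, testing without a filter, at least 10 counts in every mouse, limma 3.58.1 on log2(FPKM + 1) and log2(FPKM + 0.1) for genes with a mean FPKM of at least 0.5, the replicate number as a block, the Xist and Y group as a covariate, and leaving out each mouse. The edgeR, limma and DESeq2 steps were tested on simulated counts. Promoter sequences came from RefSeq (GRCm38.p6) and 3'UTRs from GENCODE M21.

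The 10 genes and the gene lists were chosen with earlier results of these data known. Besides them, the text names Mex3a, list genes past an unadjusted p of 0.05 or with genotypes apart, the remaining receptors and ligands, and the 3 genes most like Hes1 and Atoh1. Genes added under the block were named after their values were seen. The result of 1 marker list is not reported here.

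The genotypes share replicate numbers. After subtraction of the genotype mean, log2 CPM of the KO and Ctrl mouse of one number had correlations of 0.129, 0.501, 0.141 and 0.294 over all genes, each above 0.1, the limit used for taking the numbers as pairs (0.0904 to 0.474 over autosomal genes, where not every pair passed it). The tests given are unpaired, and the blocked fit stands beside them where a call differs. Mice with the same number also share Xist or Y transcripts. Libraries of the same genotype differed beyond counting error (chi-square divided by degrees of freedom, 23.8 to 88.5). Nothing states whether the 4 littermate controls came from separate litters.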

Additional observations from a re-analysis of the deposited data

Results flagged for a closer look

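Within each genotype, the highest or lowest mouse was compared with the others by Dixon's ratio (gap divided by range), for the 10 genes and the 11 further named pathway genes, and 6 of 42 groups of 4 mice passed the 95% critical value, where about 2.1 would by chance (1 in 20 groups). Hes1 in KO mouse 1 was 138 CPM against 88.3 to 96.5 CPM in the other KO mice (ratio 0.834), and Notch2 in the same mouse was 42.6 CPM against 36.8 to 37.8 CPM (0.830). Rbpj in Ctrl mouse 3 was 29.2 CPM against 40.2 to 42.2 CPM (0.845). Nrarp in KO mouse 2 was 21.1 CPM against 24.5 to 24.7 CPM (0.937). Ctrl mouse 2 stood apart in Poglut1, with 27.7 CPM against 29.9 to 30.2 CPM (0.869), and in Numbl, with 0.934 CPM against 0.488 to 0.554 CPM (0.852).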

How the results depend on the processing

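The direction of Dll1, Dll4, Atoh1, Rbpj, Gfi1, Nrarp, Dtx4, Poglut1, Mib1, Neurl1b, Aph1a, Numbl, Notch3, Notch4, Dll3 and Jag2 was the same in every alternative that tested them, and Nrarp and Dtx4 alone kept their unadjusted call in all 17. Signs of uncalled genes turned with upper-quartile factors for Notch2 (-0.0034), and when 1 mouse was left out for Notch1 (-0.12 to 0.075), Notch2 (-0.040 to 0.049), Jag1 (-0.20 to 0.039), Hes1 (-0.0093 to 0.23) and Lfng (-0.17 to 0.037). The r of Hes1 and Atoh1 turned to 0.423 without 2 mice. The count of the 10 genes higher was 0 with no filter (4.2% of all genes higher) and 0 to 2 when 1 mouse was left out (2.99% to 7.94%). The count of Notch pathway genes higher was 10 with the replicate block (7.14% of all genes higher in that fit), 10 with the Xist and Y covariate (7.26%), and 1 to 9 when 1 mouse was left out (2.99% to 7.94%). Secretory fate factors higher were 1 with DESeq2 (6.1% of all genes higher), 1 with no filter (4.2%), 1 with the replicate block (7.14%), 1 with the Xist and Y covariate (7.26%) and 0 to 2 without 1 mouse (2.99% to 7.94%). Those lower were 2 with upper-quartile factors (3.7% of all genes lower), 1 with no filter (2.24%), 2 with the replicate block (4.13%), 1 with the Xist and Y covariate (4%) and 0 to 2 without 1 mouse (2.17% to 5.04%). The cause was not tested. Besides the calls given above, the block changed no call among the 10 genes and the 11 further named pathway genes. Among the marker lists reported here it also brought past the threshold Sis, Dcn, Ptprc and Itgam (higher) and Cdk6 (lower). DESeq2 put 93 of 16109 genes under an adjusted p of 0.05, where edgeR put 1. With 10 to 48 counts per mouse, Numbl is near the limit of detection.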
